A study of Mus musculus with 12 samples.

Results

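The adult haemoglobin genes of the mouse, Hba-a1, Hba-a2, Hbb-bs and Hbb-bt, were followed across 12 RNA-seq libraries of peritoneal macrophages, which live in the fluid of the abdominal cavity. They are 4 of the 33641 genes for which reads were recovered from the deposited tables, and each symbol matched 1 gene. They were picked by symbol after their differences between genotypes in these libraries had been seen. Their levels, and the differences fitted to them with a standard error (SE), are therefore given as a description. The fit over all genes includes them, but the p-values it gave for them are not printed.

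The libraries came from 4 genotypes with 3 libraries each. These were the knockout of both SAMHD1 and MDA5 (SAMHD1 MDA5 DKO), SAMHD1 KO, MDA5 KO and wild type (WT), all of them untreated and taken at day 0. MDA5, the product of Ifih1, senses double-stranded RNA in the cytosol, and SAMHD1 hydrolyses the building blocks of DNA. The labels give no strain, age, sex or allele, and leave unsaid if each library was a separate animal, so that the spread between libraries may be technical.

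Haemoglobin carries oxygen in red cells and is built from alpha chains and beta chains in equal number, each chain holding a haem group with iron. Alpha and beta genes lie in separate clusters, and each adult cluster of the mouse holds a pair of near-identical genes. Erythroblasts make globin RNA in very large amounts, young red cells still carry it, and it is widely used as a measure of blood RNA in tissue samples. Large peritoneal macrophages are known for clearing cells from the cavity, and macrophages elsewhere in the body take up and digest spent red cells.

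Hba-a1 (ENSMUSG00000069919) lies on the plus strand at chr11:32283511-32284465 and Hba-a2 (ENSMUSG00000069917) on the same strand at chr11:32296489-32297298. Hbb-bs (ENSMUSG00000052305) lies on the minus strand at chr7:103826534-103828096 and Hbb-bt (ENSMUSG00000073940) on that strand at chr7:103812524-103813996. Positions are those of the files, on GRCm38, and equal those of GENCODE release M21 for all 4. Each gene has 3 exons there, with 426 coding bases in the alpha genes and 441 in the beta genes, the stop codon not counted.

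The coding sequences of a pair are shown first because they limit how far the paired genes can be told apart. Hba-a1 and Hba-a2 differ at 1 coding base, position 381 counted from the A of the start codon, and Hbb-bs and Hbb-bt at 1 coding base, position 417. The stretches below hold that base in capitals, with coding positions 351 to 410 for the alpha genes and 382 to 441 for the beta genes.
Hba-a1: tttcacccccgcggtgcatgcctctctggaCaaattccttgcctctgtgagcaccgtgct
Hba-a2: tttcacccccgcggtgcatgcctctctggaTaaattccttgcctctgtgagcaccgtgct
Hbb-bs: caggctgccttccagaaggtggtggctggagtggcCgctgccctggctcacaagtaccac
Hbb-bt: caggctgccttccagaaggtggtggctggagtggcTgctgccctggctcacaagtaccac
Of all 50-base stretches of the Hba-a1 transcript, 67.5% also occur in Hba-a2, and 65.8% of those of Hbb-bs occur in Hbb-bt. At 100 bases the shares were 56.5% and 62.6%. No 50-base stretch is shared between Hba-a1 and Hbb-bs. Read length was not given in the sources used here. The split of reads within a pair is thus uncertain, while the sum of a pair, and alpha against beta, do not depend on it.

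The promoters are shown because the levels of the 4 genes went up and down together over the libraries. Each line holds the 110 bases before the RefSeq start of the gene on GRCm38.p6, in the direction of transcription, with capitals for the motif CACCC, the motif CCAAT and the TATA-like motif ATATAA, or their reverse complements. Boxes with these letters have long been known from globin promoters. The windows are chr11:32283562-32283671 and chr11:32296382-32296491 on the plus strand, and chr7:103827929-103828038 and chr7:103813924-103814033 on the minus strand, in the order of the lines. The RefSeq starts lie downstream of the gene starts given above. The windows of Hba-a1 and Hbb-bs thus lie inside those gene spans, and those of Hba-a2 and Hbb-bt overlap them in part.
Hba-a1: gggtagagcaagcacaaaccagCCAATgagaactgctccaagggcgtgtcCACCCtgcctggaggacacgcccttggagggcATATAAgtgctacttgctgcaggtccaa
Hba-a2: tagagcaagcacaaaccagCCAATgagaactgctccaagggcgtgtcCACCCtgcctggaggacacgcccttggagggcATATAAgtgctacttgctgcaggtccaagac
Hbb-bs: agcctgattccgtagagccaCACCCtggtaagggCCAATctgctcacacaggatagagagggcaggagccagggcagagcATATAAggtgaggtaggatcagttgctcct
Hbb-bt: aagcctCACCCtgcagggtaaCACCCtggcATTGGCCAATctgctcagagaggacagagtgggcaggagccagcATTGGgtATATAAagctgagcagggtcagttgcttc
All 4 windows held each of these motifs at least once. Among 32851 RefSeq promoters of the same length, searched on both strands, CACCC was found in 29.6%, CCAAT in 20.2% and ATATAA in 4.09%. GATA, the core letters bound by GATA factors, was found in 27.3% of all promoters and in 1 of the 4 windows, that of Hbb-bs. The 300-base RefSeq promoters of Hba-a1 and Hba-a2 shared an unbroken run of 297 bases, whereas those of Hbb-bs and Hbb-bt shared at most 14 bases in a row. A match is only a match of letters.

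The deposited library columns hold transformed log2 values, from which whole reads were solved. Recovered totals ran from 33234361 reads in WT 3 to 58345425 in SAMHD1 MDA5 DKO 1. The targeted genes followed the labels, with Samhd1 at 1747 to 4960 normalised reads in SAMHD1 MDA5 DKO libraries, 2954 to 3689 in SAMHD1 KO, 14952 to 17462 in MDA5 KO and 7067 to 17124 in WT. Ifih1 had 0.881 to 41.9 in SAMHD1 MDA5 DKO, 3163 to 3745 in SAMHD1 KO, 0 to 19.98 in MDA5 KO and 816 to 3357 in WT. WT 3 stood apart in Lyz2, the lysozyme gene of macrophages, with 4810 RPM there (reads of a gene in reads-per-million units of the library) against 33189 to 111288 in the other 11 libraries. Over 12 further listed genes of large peritoneal macrophages, among them Adgre1, Gata6 and Timd4 but not Prg4, WT 3 had 11342 RPM against 8719 to 12597 elsewhere. Prg4 was also lowest in WT 3, with 66250 reads against 247784 to 712588 elsewhere. With Prg4 added to the 12, WT 3 was the lowest library, at 13335 RPM against 15308 to 26091. WT 2 was highest in B cell genes, at 324 RPM against 2.80 to 19.4 in the other libraries, and in MDA5 KO 2 a read was found for 25700 genes, against 17783 to 21168 elsewhere.

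The 4 haemoglobin genes together gave 2189 reads in the 12 libraries, a very small share of each. SAMHD1 KO libraries held 66.6% of them, WT 22.2%, MDA5 KO 7.22% and SAMHD1 MDA5 DKO 4.07%. The sum was 0, 2 and 87 reads in SAMHD1 MDA5 DKO 1, 2 and 3, and 704, 449 and 304 reads in SAMHD1 KO 1, 2 and 3. All SAMHD1 KO libraries were thus high and all SAMHD1 MDA5 DKO libraries lower, with library 3 of the double knockout well above the other two. The sum was 31, 16 and 111 reads in MDA5 KO 1, 2 and 3, and 13, 89 and 383 reads in WT 1, 2 and 3. WT covered nearly the whole range, and WT 3 lay among the SAMHD1 KO libraries.

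**Figure D1:**
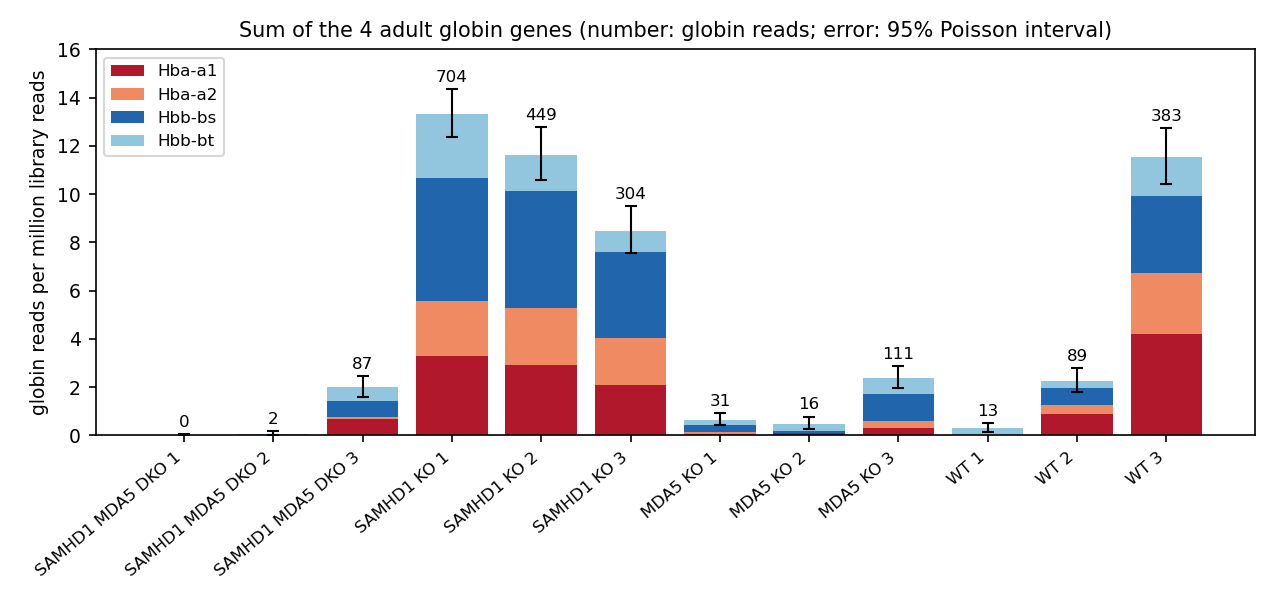
Reads of the 4 haemoglobin genes in RPM of each library, stacked by gene, with the number of globin reads above each bar and a 95% Poisson interval on the sum. The 3 SAMHD1 KO libraries and WT 3 stand between 8.49 and 13.3 RPM, and the other 8 libraries at or below 2.38.

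In RPM, the sum was 0.679 ± 1.14 in SAMHD1 MDA5 DKO, 11.1 ± 2.46 in SAMHD1 KO, 1.17 ± 1.06 in MDA5 KO and 4.69 ± 5.997 in WT (SD, n = 3 each). By these means SAMHD1 KO stood first, then WT, MDA5 KO and SAMHD1 MDA5 DKO. SAMHD1 KO and WT, WT and MDA5 KO, and MDA5 KO and SAMHD1 MDA5 DKO did not differ beyond their spread as neighbours in that order. The ratio of means was 0.0609 for SAMHD1 MDA5 DKO over SAMHD1 KO, but 0.00203 with SAMHD1 MDA5 DKO 3 left out, or 0.0913 if SAMHD1 MDA5 DKO 1 was left out instead. For SAMHD1 KO over MDA5 KO it was 9.53, or 19.8 without MDA5 KO 3. For SAMHD1 KO over WT it was 2.38, or 8.73 without WT 3. In the deepest library, SAMHD1 MDA5 DKO 1, 0 globin reads allow a level of up to 0.0514 RPM (a limit of 3 reads). Such reads carry no molecular identifiers and may be copies of 1 molecule, so intervals and limits cover counting error only. In bulk RNA, fewer cells of a type and less RNA per cell cannot be told apart.

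Hba-a1, the alpha gene with more reads, had 0, 0 and 30 reads in SAMHD1 MDA5 DKO 1, 2 and 3, and 174, 112 and 75 reads in SAMHD1 KO 1, 2 and 3. It had 3, 3 and 15 reads in MDA5 KO and 0, 35 and 139 reads in WT. Every SAMHD1 KO library was above every library of both MDA5-deficient genotypes. After division by size factors Hba-a1 averaged 9.75 ± 16.9 normalised reads in SAMHD1 MDA5 DKO, 122 ± 27.2 in SAMHD1 KO, 6.69 ± 6.15 in MDA5 KO and 74.6 ± 99.7 in WT (SD, n = 3 each). WT 3, at 188 normalised reads, was the highest of the 12 libraries, above the 145 of SAMHD1 KO 1. On the log2(normalised reads + 1) scale, limma gave a difference of -5.27 ± 1.68 (SE) for SAMHD1 MDA5 DKO minus SAMHD1 KO and 4.26 ± 1.68 for SAMHD1 KO minus MDA5 KO.

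Hba-a2, which encodes the same alpha chain, had 0, 1 and 3 reads in SAMHD1 MDA5 DKO, against 120, 92 and 70 reads in SAMHD1 KO. It had 4, 0 and 13 reads in MDA5 KO and 0, 15 and 85 reads in WT. The SAMHD1 KO libraries were close to each other, at 97.0 ± 10.3 normalised reads, against 1.27 ± 1.501 in SAMHD1 MDA5 DKO (SD, n = 3 each). The log2 difference of SAMHD1 MDA5 DKO minus SAMHD1 KO was -5.65 ± 1.42 and that of SAMHD1 KO minus MDA5 KO 4.66 ± 1.42 (SE). WT 3 was again the highest library, at 115 normalised reads against at most 106 in SAMHD1 KO.

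Hbb-bs, a gene for the adult beta chain, was the member with most reads, 815 in all. It had 0, 0 and 30 reads in SAMHD1 MDA5 DKO, against 270, 187 and 127 in SAMHD1 KO. It had 13, 3 and 52 reads in MDA5 KO and 0, 28 and 105 in WT. After scaling it was the only member whose SAMHD1 KO libraries all exceeded all WT libraries, with a lowest value of 155 normalised reads in SAMHD1 KO against a highest of 142 in WT. The log2 difference was -5.98 ± 1.67 for SAMHD1 MDA5 DKO minus SAMHD1 KO and 3.802 ± 1.67 for SAMHD1 KO minus MDA5 KO (SE).

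Hbb-bt, its neighbour in the beta cluster, was the most evenly spread member. It had 0, 1 and 24 reads in SAMHD1 MDA5 DKO, against 140, 58 and 32 reads in SAMHD1 KO. It had 11, 10 and 31 reads in MDA5 KO and 13, 11 and 54 in WT. A read was found in 11 of 12 libraries, against 9 of 12 for each of the other members, and in WT 1 it was the only member with a read. The log2 difference was -4.25 ± 1.09 for SAMHD1 MDA5 DKO minus SAMHD1 KO and 2.09 ± 1.09 for SAMHD1 KO minus MDA5 KO (SE).

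**Figure D2:**
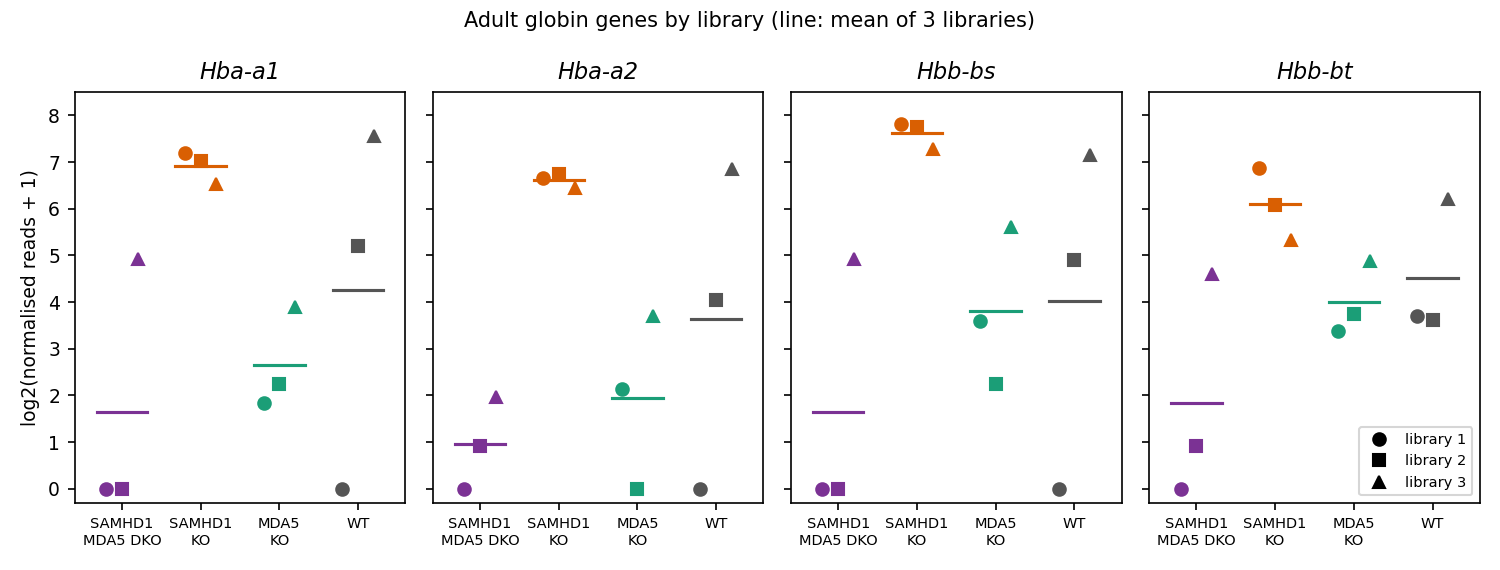
Level of each haemoglobin gene in every library, as log2(normalised reads + 1), with the library number as the symbol and the mean of 3 libraries as a line. In all 4 panels the SAMHD1 KO points lie above the SAMHD1 MDA5 DKO and MDA5 KO points, and the WT points are widely spread, least so for Hbb-bt.

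As RPM per kilobase of gene length, which allows genes to be compared, Hbb-bs averaged 5.86 ± 1.09 in SAMHD1 KO, Hba-a1 3.40 ± 0.754, Hba-a2 3.30 ± 0.334 and Hbb-bt 2.39 ± 1.27 (SD, n = 3). Over the 12 libraries the log2 levels of the 4 members correlated pairwise with a Pearson r of 0.801 (Hba-a2 and Hbb-bt) to 0.972 (Hba-a1 and Hbb-bs). The points share libraries and, within a pair, reads.

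The limma fit covered 15130 genes with at least 0.228 RPM, or 10 reads at median depth, in 3 or more libraries. A gene counts as called at a Benjamini-Hochberg adjusted p under 0.05 over all of them. All 4 members passed this minimum, in 6 libraries (Hba-a2) to 10 (Hbb-bt), and in each the 3 SAMHD1 KO libraries were among them, while Hba-a2 passed it in 0 SAMHD1 MDA5 DKO libraries. Over all genes, 0.0132% were called in SAMHD1 MDA5 DKO minus SAMHD1 KO, 0% in SAMHD1 MDA5 DKO minus MDA5 KO, 0.00661% in SAMHD1 MDA5 DKO minus WT, 0.00661% in SAMHD1 KO minus MDA5 KO, 0% in SAMHD1 KO minus WT and 0.00661% in MDA5 KO minus WT. None of the called genes was a haemoglobin gene, and nothing is read from this, as the members were picked with their levels seen.

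The libraries of SAMHD1 MDA5 DKO lay below those of SAMHD1 KO without overlap in 4 of 4 members, which was so for 9.13% of all genes tested. Those of SAMHD1 KO lay above those of MDA5 KO in 4 of 4 (7.15% of all genes), and above those of WT in 1, Hbb-bs (12.3% of all genes). SAMHD1 MDA5 DKO lay below WT in 0 (17.1% of all genes), and MDA5 KO below WT in 0 (14.2% of all genes). Since the genes were picked with these differences in view, nothing is read from these counts. Comparisons with a genotype in common share its libraries.

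Averaged over the 4 members on the log2 scale, SAMHD1 MDA5 DKO minus SAMHD1 KO was -5.29 and SAMHD1 KO minus MDA5 KO 3.70. SAMHD1 KO minus WT was 2.70, or 4.12 without WT 3 and 1.12 without WT 1. SAMHD1 MDA5 DKO minus WT was -2.58, or -1.16 without WT 3, -4.17 without WT 1 and -3.88 without SAMHD1 MDA5 DKO 3. SAMHD1 MDA5 DKO minus MDA5 KO was -1.59, or -2.88 without SAMHD1 MDA5 DKO 3, -0.82 without SAMHD1 MDA5 DKO 1, -1.05 without SAMHD1 MDA5 DKO 2 and -0.88 without MDA5 KO 3. MDA5 KO minus WT was -0.999, and it turned to 0.42 without WT 3. It was -2.59 without WT 1, -1.70 without MDA5 KO 3 and -0.48 without MDA5 KO 2. The comparisons with WT thus depended on WT 1 and WT 3. The median difference over all genes tested lay within 0.1 of 0 in each comparison.

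The make-up of the globin reads differed between libraries. Alpha genes gave 37.9% of the globin reads in SAMHD1 MDA5 DKO 3 (95% exact binomial interval 27.7% to 48.97%), the only double knockout library with at least 10 globin reads. They gave 41.8%, 45.4% and 47.7% in SAMHD1 KO 1, 2 and 3, against 22.6%, 18.8% and 25.2% in MDA5 KO 1, 2 and 3. In WT 2 and 3 they gave 56.2% and 58.5%, while the 13 globin reads of WT 1 were all from Hbb-bt, an alpha share of 0% (interval up to 24.7%). The 3 SAMHD1 KO libraries were thus all above the 3 MDA5 KO libraries, by 22.8 percentage points on average. An exact two-sided permutation test gave p = 0.1, the smallest that 3 libraries against 3 allow (adjusted p = 0.3 over 3 comparisons). It could not fall under 0.05, so it cannot decide if the shares differ. The reads are also those of genes picked with their levels seen, so the shares are a description. The difference was 6.74 points for SAMHD1 KO minus WT (exact permutation p = 1, adjusted p = 1) and -16.0 points for MDA5 KO minus WT (exact permutation p = 0.4, adjusted p = 0.6). Without WT 1, with its 13 globin reads, SAMHD1 KO minus WT turned to -12.4 points and MDA5 KO minus WT was -35.1 points. Without WT 2 they were 15.7 and -7.06 points, and without WT 3 16.9 and -5.90 points. The MDA5 KO shares rest on 31, 16 and 111 globin reads.

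**Figure D3:**
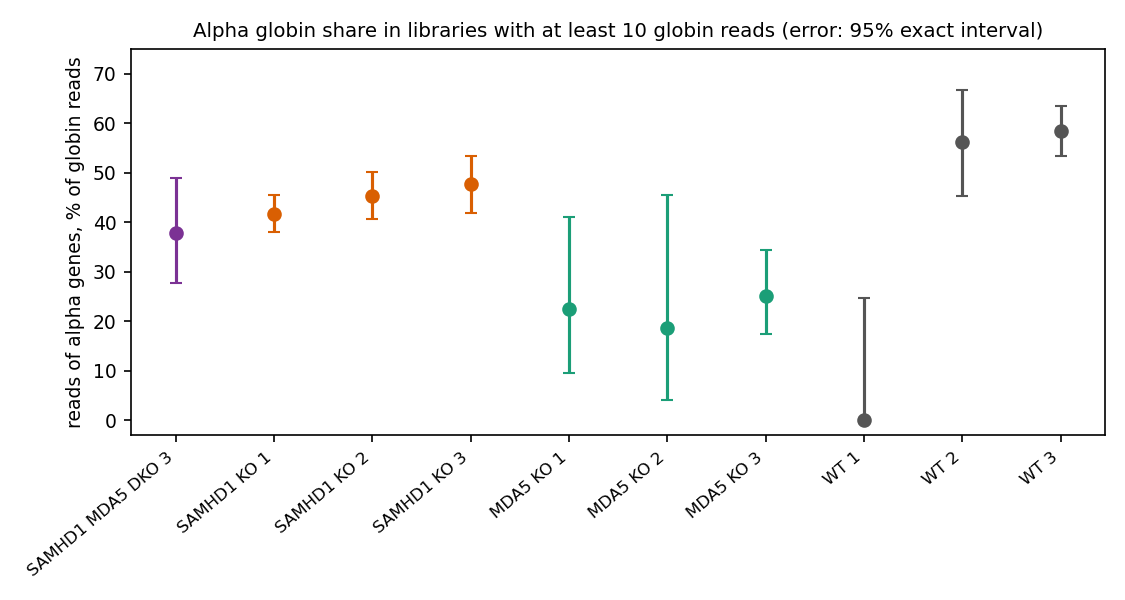
Share of the globin reads that came from Hba-a1 and Hba-a2, in percent, for the 10 libraries with at least 10 globin reads, with 95% exact binomial intervals. The MDA5 KO libraries lie between 18.8% and 25.2%, below the SAMHD1 KO libraries at 41.8% to 47.7%, and WT 1 at 0% stands apart from WT 2 and WT 3.

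Within the pairs, where the split is uncertain, Hba-a1 gave 90.9% of alpha reads in SAMHD1 MDA5 DKO 3 (interval 75.7% to 98.1%), against 59.2%, 54.9% and 51.7% in SAMHD1 KO 1, 2 and 3. In WT 2 and WT 3 it gave 70.0% and 62.1%. Hbb-bs gave 55.6% of beta reads in SAMHD1 MDA5 DKO 3, against 65.9%, 76.3% and 79.9% in the SAMHD1 KO libraries. The share of Hba-a1 in SAMHD1 MDA5 DKO 3 thus lay above every SAMHD1 KO value, and that of Hbb-bs below.

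The authors' deposited library columns give another picture of single libraries. In them the mean difference between a set of libraries (WT 3, SAMHD1 KO 2 and SAMHD1 MDA5 DKO 3) and the rest of the table was subtracted gene by gene. Of 347 pairs of libraries with unequal normalised reads, over the 4 members and 6 tables, 51 stood in the opposite order in the deposited columns. The table of SAMHD1 MDA5 DKO and WT held 15 of its 53 pairs in the opposite order. There Hbb-bs was deposited at 5.47 in SAMHD1 MDA5 DKO 3, which had 30 reads, and at 5.79 in SAMHD1 MDA5 DKO 1, which had 0. Averaged over the members, the deposited columns gave -2.15 for SAMHD1 MDA5 DKO minus SAMHD1 KO and 0.88 for SAMHD1 KO minus MDA5 KO, in both the same sign as the recovered reads.

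**Figure D4:**
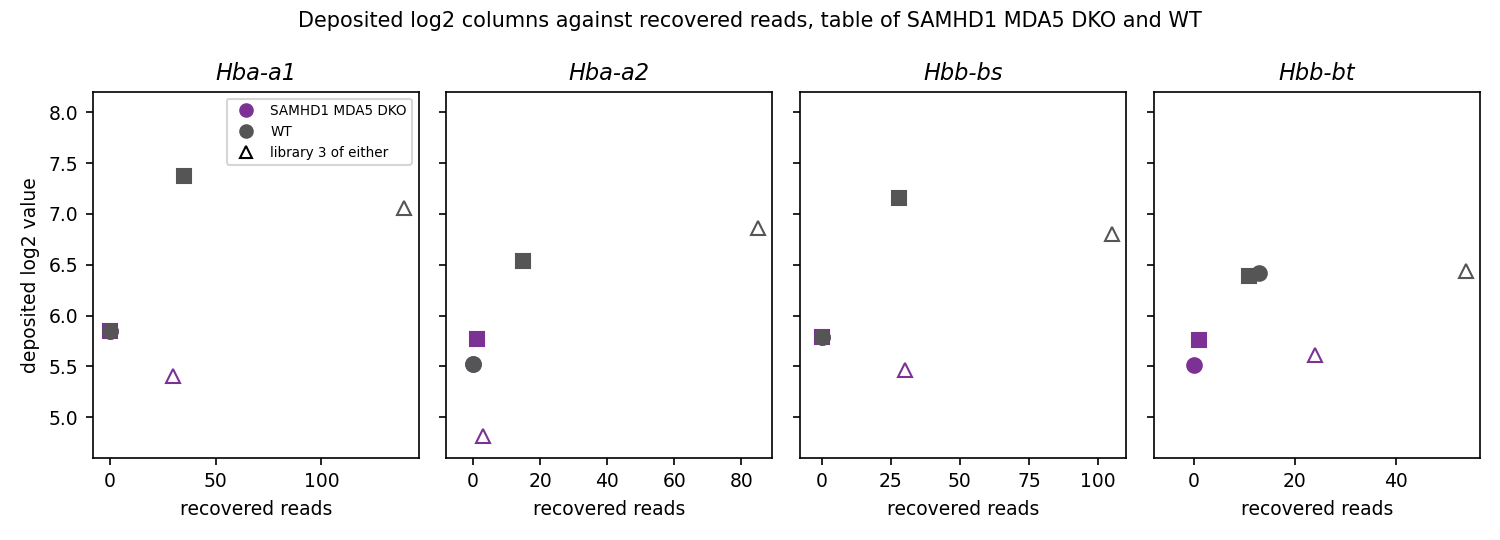
Log2 values deposited by the authors against recovered reads, for each haemoglobin gene in the table of SAMHD1 MDA5 DKO and WT. Open triangles are library 3 of either genotype, and symbols at 0 reads overlie each other. For Hba-a1 and Hbb-bs the double knockout library with 30 reads lies below those with 0 reads.

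In the authors' deposited table, Hba-a2 alone of the 4 was called lower in SAMHD1 MDA5 DKO than in SAMHD1 KO, with a shrunken log2 fold change of -3.17 and an adjusted p of 2.71e-15 (1.48% of all genes were called lower there). For the other members the authors' deposited table gave -0.32 (Hba-a1, adjusted p = 1), -0.21 (Hbb-bs, adjusted p = 0.508) and -0.45 (Hbb-bt, adjusted p = 0.821). The recovered reads of these 3 included 24 to 30 reads in SAMHD1 MDA5 DKO 3, and those of Hba-a2 included 3. For MDA5 KO minus SAMHD1 KO the authors' deposited table called 3 members lower, Hba-a1 at -1.68 (adjusted p = 1.93e-04), Hba-a2 at -1.38 (adjusted p = 0.00885) and Hbb-bs at -1.42 (adjusted p = 0.00237), where 0.481% of all genes were called that way. For SAMHD1 MDA5 DKO minus WT the authors' deposited table called Hba-a2 lower, at -1.55 (adjusted p = 0.041, with 3.86% of all genes called lower). As the members were picked with their levels in these libraries seen, nothing is read from these calls and adjusted p-values.

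In SAMHD1 MDA5 DKO minus SAMHD1 KO, limma called 0.0132% of all genes tested, none of them a haemoglobin gene. The other red cell genes were near 0 reads or were also not called there. Of 25 such genes listed, 21 were in the tables, and 8 passed the minimum. The other 13 gave 173 reads together over all libraries, against 2189 globin reads, and in the SAMHD1 KO libraries they gave 8, 5 and 10 reads, against 704, 449 and 304 globin reads. Among them, Slc4a1, the anion exchanger of the red cell membrane, had 0, 0 and 8 reads in SAMHD1 KO 1, 2 and 3. Over all libraries Hemgn had 2 reads, Rhag 1 and Klf1, the main activator of the adult beta genes, 57. MDA5 KO 2, with a read in more genes than any other library, held 75 of the 173 reads. Alas2, Ahsp, Gata1 and Xk were not analysed here.

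The 8 red cell genes that passed the minimum had a median log2 difference of -0.03 in SAMHD1 MDA5 DKO minus SAMHD1 KO, beside 0.02 over all genes tested and -5.46 over the haemoglobin genes. Nfe2, a transcription factor of red cell and platelet precursors, had the highest level of them, at 5311 ± 799 normalised reads in SAMHD1 MDA5 DKO, 5427 ± 200 in SAMHD1 KO, 5347 ± 718 in MDA5 KO and 8325 ± 734 in WT (SD, n = 3 each). Gypc, a glycophorin found in many cell types, averaged 3074 ± 101 in SAMHD1 MDA5 DKO and 3318 ± 403 in SAMHD1 KO. Tmcc2, a membrane protein gene of the list, averaged 490 ± 56.3 in SAMHD1 MDA5 DKO and 282 ± 61.5 in SAMHD1 KO. Bpgm, which makes the regulator of oxygen release, averaged 278 ± 34.4 in SAMHD1 MDA5 DKO and 284 ± 45.2 in SAMHD1 KO. Tal1, a factor of early blood cells, averaged 244 ± 65.9 in SAMHD1 MDA5 DKO and 279 ± 32.9 in SAMHD1 KO. None of these 5 was called in any of the 6 comparisons, beside at most 0.0132% of all genes. Of the 5, Tmcc2 alone did not overlap between SAMHD1 MDA5 DKO and SAMHD1 KO, being higher in the double knockout (9.14% of all genes). The rest of the 8 overlapped there, with log2 differences of -1.44 ± 1.18 (Epor), 1.51 ± 1.08 (Sptb) and 0.51 ± 0.43 (Ank1, SE). Epor averaged 33.3 ± 26.9 normalised reads in SAMHD1 MDA5 DKO, 87.3 ± 47.6 in SAMHD1 KO, 21.9 ± 28.95 in MDA5 KO and 28.0 ± 16.7 in WT (SD).

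Of 12 other globin genes listed, 6 were in the tables and 0 passed the minimum. The embryonic genes Hba-x, Hbb-y and Hbb-bh1 had 13, 6 and 5 reads in all, 10 of those of Hba-x in MDA5 KO 2 and all 5 of those of Hbb-bh1 in SAMHD1 KO 2. Myoglobin (Mb), which stores oxygen in muscle, had 16 reads, cytoglobin (Cygb) 2 and neuroglobin (Ngb) 60. Ngb reads were spread over the 9 libraries of the knockout genotypes, at 1 to 15 each, with 0 in the 3 WT libraries.

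Genes of haem synthesis and iron import had 16 tested members, of which 12 were positive and 4 negative in SAMHD1 MDA5 DKO minus SAMHD1 KO, with a median of 0.08. Tfrc, the transferrin receptor that imports iron, had 401 ± 87.1 normalised reads in SAMHD1 MDA5 DKO and 211 ± 53.9 in SAMHD1 KO (SD, n = 3 each), a log2 difference of 0.94 ± 0.30 (SE). Steap3, the reductase that frees imported iron in endosomes, differed by 0.82 ± 0.30. Its SAMHD1 KO libraries were split, with 2981 reads in library 1 and 1020 and 933 in the other two. Both had a limma adjusted p of 0.562.

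Genes of haem breakdown and iron handling had 17 tested members, 6 positive and 11 negative, with a median of -0.18. Hp, haptoglobin, which binds free haemoglobin, had 10258 ± 1941 normalised reads in SAMHD1 MDA5 DKO and 19638 ± 6255 in SAMHD1 KO (SD, n = 3 each), a log2 difference of -0.91 ± 0.37 (SE). Fth1, the ferritin heavy chain that stores iron, differed by -0.62 ± 0.19, and its many pseudogenes can share reads with it. Both had a limma adjusted p of 0.562. The groups did not overlap in Hp, Fth1 and Ftl1, the ferritin light chain, all lower in SAMHD1 MDA5 DKO (9.13% of all genes), and in Slc11a1, a metal transporter of phagosomes, which was higher there (9.14% of all genes). Hmox1, the enzyme that opens the haem ring, had 5285 ± 945 normalised reads in SAMHD1 MDA5 DKO, 5509 ± 1774 in SAMHD1 KO, 6105 ± 609 in MDA5 KO and 6878 ± 2321 in WT. It was singled out here for its role in haem breakdown.

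Over the 41 tested genes of these lists, limma called 0 in each of the 6 comparisons, beside at most 0.0132% of all genes tested. At an unadjusted p under 0.05 there were 4 in SAMHD1 MDA5 DKO minus SAMHD1 KO (9.76%, beside 8.81% of all genes tested), 0 in SAMHD1 MDA5 DKO minus MDA5 KO (0%, beside 1.02%) and 10 in SAMHD1 MDA5 DKO minus WT (24.4%, beside 27.8%). There were 7 in SAMHD1 KO minus MDA5 KO (17.1%, beside 9.53%), 9 in SAMHD1 KO minus WT (21.95%, beside 15.4%) and 8 in MDA5 KO minus WT (19.5%, beside 22.4%).

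**Figure D5:**
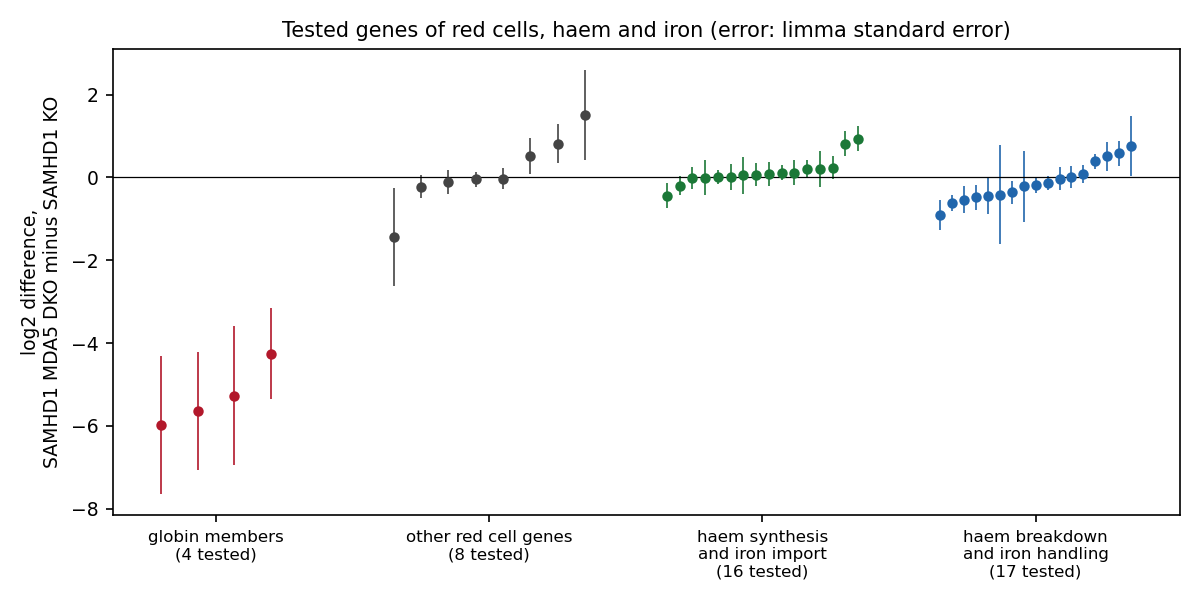
Log2 difference of SAMHD1 MDA5 DKO minus SAMHD1 KO, with limma's standard error, for the tested haemoglobin genes and the tested genes of 3 other lists, ordered by size within a list. The haemoglobin genes lie between -5.98 and -4.25, and the medians of the other lists between -0.18 and 0.08.

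Genes of other cells of the cavity were set beside the globin levels. Mast cell genes summed to 39.1 to 61.2 RPM in SAMHD1 MDA5 DKO and 68.7 to 85.8 in SAMHD1 KO. They summed to 67.6 to 105 in MDA5 KO and 79.5 to 369 in WT. All 8 tested were lower in SAMHD1 MDA5 DKO than in SAMHD1 KO, with 0 called (0.0132% of all genes). In every library of both genotypes, most reads of the list were from Hdc, so these sums mainly follow that gene. For SAMHD1 MDA5 DKO minus SAMHD1 KO, Hdc differed by -0.26 ± 0.32 (SE) on the log2 scale. The median over the 8 tested mast cell genes was -2.73. Cpa3, a mast cell protease, had 47, 0 and 42 reads in SAMHD1 MDA5 DKO, against 42, 328 and 270 in SAMHD1 KO. SAMHD1 KO 1, the library with most globin reads, thus had few. Platelet and megakaryocyte genes summed to 470 to 965 RPM in SAMHD1 MDA5 DKO, 523 to 1011 in SAMHD1 KO, 807 to 995 in MDA5 KO and 1032 to 2938 in WT. Nearly all of these reads were from Pf4 and Itgb3, and the other 11 genes of the list summed to 2.10 to 4.32 RPM in SAMHD1 MDA5 DKO and 1.89 to 5.58 in SAMHD1 KO. WT 3 was the highest library in these 11 genes, at 14.2 RPM against 1.89 to 8.06 elsewhere. It was also highest in Pf4, at 2881 RPM against 411 to 961. Of the 11, Itga2b, an integrin of platelets, had 35, 24 and 2 reads in SAMHD1 MDA5 DKO, against 27, 23 and 21 in SAMHD1 KO. Gp5 and Gp9 had 0 reads in all libraries of both of these genotypes. B cell genes stood at 5.51 to 19.4 RPM in SAMHD1 MDA5 DKO and 7.45 to 9.62 in SAMHD1 KO. T and NK cell genes stood at 0.892 to 3.34 in SAMHD1 MDA5 DKO and 2.10 to 3.96 in SAMHD1 KO, and granulocyte genes at 2.61 to 3.55 in SAMHD1 MDA5 DKO and 2.50 to 3.39 in SAMHD1 KO. The part of these cells in the globin differences was not tested.

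Among 15126 other tested genes, those whose log2 levels were most like the mean of the 4 haemoglobin genes over the 12 libraries were Txn-ps1 (Pearson r = 0.872), Cd82 (0.857), Gm16372 (0.848), Clec4e (0.844), Plscr1 (0.833), Uqcrh-ps2 (0.831), Bambi-ps1 (0.825), Mfsd4b3 (0.820), 2610306M01Rik (0.820) and Ccrl2 (0.805). Of these 10, 3 are processed pseudogenes, whose reads can come from their parent genes. Cd82, a tetraspanin of the cell surface, had 1616, 1461 and 1612 normalised reads in SAMHD1 MDA5 DKO, against 1806, 1912 and 1879 in SAMHD1 KO. It had 1554, 1686 and 1708 in MDA5 KO and 1518, 1775 and 2116 in WT, so that WT 3 was the highest library and the range was far narrower than that of the globins. The genes most unlike were D11Wsu47e (-0.942), Pld4 (-0.871), Nwd1 (-0.858), Nptxr (-0.845) and Lsm11 (-0.839). None of the listed genes of red cells, haem and iron was among these 15. These r values are a ranking over libraries that also differ in genotype and depth, and carry no test.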

How the data were processed

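RNA-seq was measured in 12 libraries, 3 per genotype, grouped by the genotype in the labels. Per the submitters' processing notes, STAR, Salmon, R 4.1.2 and DESeq2 were used with GRCm38 and mm10. The labels' extraction protocol lists bedtools 2.16.2, Ensembl Gene 61 and pBWA 0.5.9-r32-MPI-patch2 as well. Which of these made the tables is not given in the sources used here. The library columns and the fold changes with their standard errors deposited by the authors are on the log2 scale, the fold changes shrunken. Beside them the authors gave a signal, each gene's reads over size factors averaged across a table. The p-value columns deposited by the authors hold a p and an adjusted p. Columns of per-sample values left unmapped numbered 0.

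Whole reads were solved from the library columns and means of the 6 tables together, with a tolerance of 0.05 reads; this was tested on simulated data. Salmon splits reads between near-identical genes by an estimate. Being solved, these reads were not given to a count model. Median-of-ratios size factors scaled the reads, and limma 3.58.1 in R 4.3.3 was fitted to log2(value + 1) of all 12 libraries, with a term for genotype alone and with robust moderation along a variance trend. Low genes are understated by the pseudocount of 1. Adjusted p-values cover the 15130 genes tested. P-values measure only the spread between these libraries.

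The named genes are the 4 members, the listed genes with an unadjusted p under 0.05 in SAMHD1 MDA5 DKO minus SAMHD1 KO, the 5 red cell genes with the highest mean, and the 10 most and 5 least alike; further names were added after their values were seen. Members and lists were chosen with earlier results of these data known. Promoters come from RefSeq (GRCm38.p6) and coding sequence from the genome with GENCODE M21. Alternatives were other pseudocounts, no filter, scaling by totals, a replicate block, no trend, 6 libraries alone, the deposited columns, each library left out, and, chosen after seeing the data, the subtracted set of libraries left out or as a term.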

Additional observations from a re-analysis of the deposited data

How the results depend on the processing

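The mean log2 difference over the 4 haemoglobin genes kept its sign in 5 of 6 comparisons under every setting run. With 1 library left out, this follows for SAMHD1 KO against either MDA5-deficient genotype from groups that do not overlap. In the sixth comparison, MDA5 KO minus WT (-0.999), the difference was 0.42 without WT 3 and 0.043 in the deposited columns. The value of 0.42 is also that with the 3 libraries of the subtracted set left out. With the deposited columns, which hold transformed values, the mean globin difference was smaller in size in all 6 comparisons. Why it was smaller was not tested. With the subtracted set as a term, the mean globin difference kept its main value in the comparisons among SAMHD1 MDA5 DKO, SAMHD1 KO and WT. This is so by construction, as each of these genotypes held 1 library of the set. In the deposited columns the mean difference was -2.15 for SAMHD1 MDA5 DKO minus SAMHD1 KO and -0.197 for SAMHD1 MDA5 DKO minus MDA5 KO. There it was -0.92 for SAMHD1 MDA5 DKO minus WT, 0.88 for SAMHD1 KO minus MDA5 KO and 1.08 for SAMHD1 KO minus WT. With 1 library left out it ranged over -6.58 to -4.53 for SAMHD1 MDA5 DKO minus SAMHD1 KO, -2.88 to -0.82 for SAMHD1 MDA5 DKO minus MDA5 KO, -4.17 to -1.16 for SAMHD1 MDA5 DKO minus WT, 3.18 to 4.41 for SAMHD1 KO minus MDA5 KO, 1.12 to 4.12 for SAMHD1 KO minus WT and -2.59 to 0.42 for MDA5 KO minus WT. The difference in alpha share, with 1 library left out as an alternative chosen after seeing the data, ranged over 21.1 to 24.4 points for SAMHD1 KO minus MDA5 KO, -12.4 to 16.9 for SAMHD1 KO minus WT and -35.1 to -5.90 for MDA5 KO minus WT.

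Counts of genes called by limma were unstable, and the cause was not tested. The fit to the deposited columns had a term for genotype alone and did not allow for the subtraction already made in them. SAMHD1 MDA5 DKO minus SAMHD1 KO had 2, but 0 with a pseudocount of 0.5, no filter, scaling by totals, no trend, the 6 libraries alone or the subtracted set left out, 8 with the deposited columns, and 0 to 133 with 1 library left out. SAMHD1 MDA5 DKO minus MDA5 KO had 0, and 2 with the subtracted set left out. SAMHD1 MDA5 DKO minus WT had 1, but 2 with a pseudocount of 4, 0 with the 6 libraries alone, 1223 with the deposited columns, 9 with the set as a term, and 0 to 1784 with 1 library left out. SAMHD1 KO minus MDA5 KO had 1, but 5 with no filter, 0 with no trend or the deposited columns, 49 with the 6 libraries alone, 17 with the set left out, 11 with it as a term, and 0 to 174 with 1 library left out. SAMHD1 KO minus WT had 0, but 1 with no trend or the set left out, 2 with the deposited columns, and 0 to 2 with 1 library left out. MDA5 KO minus WT had 1, but 0 with a pseudocount of 0.5, scaling by totals, the 6 libraries alone, the deposited columns, the set left out or as a term, and 0 to 2 with 1 library left out.

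Of the 41 genes of red cells, haem and iron, 0 were called, beside at most 0.0132% of all genes in any comparison. With 1 library left out 0 to 5 were called: 2 without SAMHD1 KO 1, 5 without WT 1 and 1 without WT 3. With the deposited columns 4 were called (Tfrc, Slc25a37, Lrp1 and Nfe2), in a fit that did not allow for the subtraction made in them. These other genes were named after their values were seen. Same-numbered libraries of different genotypes had deviations correlated at -0.057 to 0.337 over 18 pairs, over 0.1 in 8, so that the numbers were not taken to pair the libraries. With the replicate block the counts were 0 for SAMHD1 MDA5 DKO minus SAMHD1 KO, 0 for SAMHD1 MDA5 DKO minus WT, 2 for SAMHD1 KO minus MDA5 KO, 0 for MDA5 KO minus WT and 0 for the red cell, haem and iron genes; the globin differences are the same with it by construction.

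Of 12 libraries, 5 held 31 or fewer globin reads, and a library at 0 allows up to 3.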
